A study of Mus musculus with 3 samples.

Results

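Cardiac lineage transcription factors, 10 in number, were followed through 3 mouse cultures at single-cell resolution: Nkx2-5, Gata4, Gata6, Tbx5, Tbx20, Hand1, Hand2, Isl1, Mef2c and Mesp1. They were taken as a named list of 10 genes among the 27886 that at least 1 of the 3 count tables listed. Of the 10 factors, 7 were listed in the table of mouse embryonic stem cells (mESCs), 9 in that of cardiac precursor cell cultures (CPCCs) and all 10 in that of beating cardiac bodies (CBs). A table listed a gene only where some cell reached at least 1 count, so Nkx2-5, Hand1 and Mef2c have no value in mESCs and Tbx5 has none in CPCCs, and none of these was read as 0.

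These factors form the core of the network that builds the heart. Mesp1 marks the earliest cardiac mesoderm and is switched off again before heart muscle forms. Isl1 is held by progenitors of the second heart field, while Tbx5 and Hand1 are known for the first heart field and the left ventricle, and Hand2 for the right ventricle and outflow tract. Nkx2-5 is a homeodomain factor of the committed cardiac cell and works together with the zinc finger factors Gata4 and Gata6, the T-box factor Tbx20 and the MADS-box factor Mef2c on the genes of the sarcomere. Several of them also have roles outside heart muscle: Gata4 and Gata6 in extraembryonic and gut endoderm, Hand2 in mesenchyme, Mef2c in endothelium and in myeloid cells, and Isl1 in neurons and other progenitors.

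All cells were male and carried the genomes of C57BL/6 and CAST/EiJ, in F1 stem cell lines from a C57BL/6J mother and a CAST/EiJ father. mESCs were the undifferentiated cells in medium with 2 inhibitors and LIF. CPCCs were taken from embryoid bodies that had formed in ascorbic acid medium and were then expanded as a culture with EGF and Fgf2, and CBs were aggregates left in ascorbic acid medium until they beat, so the CBs did not derive from the CPCCs. Each group was 1 sample by the labels, with no time or age stated there, and the cells were captured on a Fluidigm C1 chip and read as full-length cDNA.

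There were 215 cells of mESCs, 175 of CPCCs and 232 of CBs, with median totals of 1528316, 1437414 and 1397869 counts per cell, and totals in single cells ranged from 4 to 8105511 counts. With 1 sample per group no test was possible, and every difference between cultures lacks a replicate check. Column names carry 8 number prefixes, 3 in mESCs, 2 in CPCCs and 3 in CBs, which are read here as the pooled libraries that the study sequenced. Neither they nor the labels tell which clone, chip or culture such a pool came from, although the label of the mESCs names a triplicate. A pool held cells of 1 culture only, so pool and culture cannot be told apart, and pools are shown as descriptions and not as replicates. Levels are given as CPM, counts scaled to one total that is the same for every sample or cell. The 6 pluripotency markers summed to 9571 CPM in mESCs, 2676 CPM in CPCCs and 30.5 CPM in CBs. The labels call the CBs mature cardiac cells, yet the 10 cardiomyocyte markers summed to 501 CPM there, against 8420 CPM for the 6 fibroblast markers, and 16 of 232 CB cells reached 100 CPM of Tnnt2, the cardiac troponin T gene. The 8 macrophage markers summed to 0.314 CPM in mESCs, 2148 CPM in CPCCs and 117 CPM in CBs.

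Promoters are shown for 4 of the factors because their transcripts lay in contrasting cells of the CBs: over 50% of the counts of Nkx2-5 and Tbx20 came from cells with high Tnnt2 (for Nkx2-5 only with its top cell, without which it was 29.9%), those of Hand2 mainly from cells with high Col1a2, while neither class held over 50% of those of Isl1. Each window runs from 250 bases before to 50 bases after a RefSeq start site in GRCm38.p6 and is given on the strand of the gene, with matches of GATAA or GATAG, the letters of a GATA site, on either strand in capitals. The windows are chr17:26841516-26841815 on the minus strand for Nkx2-5, chr9:24774254-24774553 on the minus strand for Tbx20, chr8:57320733-57321032 on the plus strand for Hand2 and chr13:116309639-116309938 on the minus strand for Isl1.
Nkx2-5: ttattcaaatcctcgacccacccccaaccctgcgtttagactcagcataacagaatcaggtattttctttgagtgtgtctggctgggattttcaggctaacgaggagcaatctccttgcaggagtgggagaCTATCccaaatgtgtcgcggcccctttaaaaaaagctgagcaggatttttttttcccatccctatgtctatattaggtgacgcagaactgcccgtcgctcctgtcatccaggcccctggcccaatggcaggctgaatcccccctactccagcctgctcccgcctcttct
Tbx20: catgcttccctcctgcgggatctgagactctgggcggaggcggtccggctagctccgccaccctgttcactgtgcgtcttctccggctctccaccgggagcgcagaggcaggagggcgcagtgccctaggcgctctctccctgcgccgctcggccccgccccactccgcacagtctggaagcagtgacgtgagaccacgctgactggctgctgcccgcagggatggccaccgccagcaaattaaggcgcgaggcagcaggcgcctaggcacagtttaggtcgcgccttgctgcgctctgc
Hand2: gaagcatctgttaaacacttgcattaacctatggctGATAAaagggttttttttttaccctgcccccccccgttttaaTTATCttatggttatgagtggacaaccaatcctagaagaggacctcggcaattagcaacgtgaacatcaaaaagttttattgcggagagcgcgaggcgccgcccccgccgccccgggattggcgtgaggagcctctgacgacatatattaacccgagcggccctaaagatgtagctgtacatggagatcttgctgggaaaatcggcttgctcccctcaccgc
Isl1: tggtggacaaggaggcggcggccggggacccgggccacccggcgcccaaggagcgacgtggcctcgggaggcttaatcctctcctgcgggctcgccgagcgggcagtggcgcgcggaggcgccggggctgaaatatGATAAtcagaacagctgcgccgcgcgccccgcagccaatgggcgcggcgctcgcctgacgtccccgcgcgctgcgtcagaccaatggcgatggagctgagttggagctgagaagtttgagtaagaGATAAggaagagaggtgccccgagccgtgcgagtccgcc
The Nkx2-5 window held 1 such match, those of Hand2 and Isl1 held 2 each and that of Tbx20 held 0, where 41.6% of 32851 RefSeq windows of this length held at least 1. The E-box letters CANNTG, read on both strands, occurred 1 time before Nkx2-5, 2 times before Hand2, 1 time before Isl1 and 0 times before Tbx20, and 72.3% of all windows held one. Windows were also found for Mef2c and Mesp1, so 6 of the 10 factors were matched in this reference, and those of Gata4, Gata6, Tbx5 and Hand1 were not analysed here. The matches describe letters only.

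In the annotation of GRCm38 the genes are protein coding and lie on 9 chromosomes. Isl1 (chr13:116298281-116309689) and Mef2c (chr13:83504034-83667080) share chromosome 13. Nkx2-5 spans chr17:26838664-26845009, Gata4 chr14:63198922-63271692, Tbx5 chr5:119832668-119885219, Tbx20 chr9:24718138-24774303, Hand1 chr11:57828705-57832818, Hand2 chr8:57320983-57324633 and Mesp1 chr7:79792241-79793788, and Gata6 lies on chromosome 18. Hand2 overlaps Hand2os1 and Gata6 overlaps 1010001N08Rik, both on the opposite strand, and whether the counting used strand was not given in the sources used here, so reads of the overlapping parts cannot be assigned to one strand.

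The GATA factors were lower in mESCs than in both differentiated cultures. Gata4 had 0.868 CPM in mESCs (95% Poisson interval 0.774 to 0.972), 16.9 CPM in CPCCs (16.4 to 17.4) and 13.6 CPM in CBs (13.2 to 14.0), from counts summed over all cells of a sample. It was found with at least 1 count in 8 of 215 mESCs, 18 of 175 CPCCs and 40 of 232 CB cells. Gata6 had 0.111 CPM in mESCs (0.0790 to 0.152), 5.82 CPM in CPCCs (5.54 to 6.11) and 31.7 CPM in CBs (31.1 to 32.3), with 6, 22 and 75 cells. Gata4 was a little higher in CPCCs than in CBs by its sum while the share of cells was lower, but 1 CPCC cell held 28.2% of the Gata4 counts of that culture, and without the top cell of each culture the sums were 12.2 CPM in CPCCs and 12.4 CPM in CBs. These intervals, and the exact Clopper-Pearson intervals of shares below, cover counting error alone. The Poisson intervals treat each count as a separate draw. The libraries had no molecular identifiers, so several counts can come from 1 molecule, and the Poisson intervals can be too narrow. For a share of 0 the limit given is 3 cells of the number examined, not the Clopper-Pearson bound.

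Of the T-box factors, Tbx20 was the one listed factor that many mESCs held. Its level was 4.25 CPM in mESCs (4.04 to 4.47), 9.84 CPM in CPCCs (9.48 to 10.2) and 17.1 CPM in CBs (16.7 to 17.6), while the share of cells went the other way, 17.7% (38 cells, 12.8 to 23.4%) in mESCs, 16.0% (28 cells, 10.9 to 22.3%) in CPCCs and 12.1% (28 cells, 8.17 to 17.0%) in CBs. These 3 intervals overlap. Among the cells that held it, the median Tbx20 level was 13.3 CPM in mESCs, 30.2 CPM in CPCCs and 68.4 CPM in CBs. Tbx5, a factor of the limb and heart fields, was found in 1 mESC with 35 counts, and in 16 CB cells with 2.51 CPM summed (2.34 to 2.68).

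The Hand factors are basic helix-loop-helix proteins of the ventricles. Hand2 had 0.0584 CPM in mESCs (4 cells), 1.93 CPM in CPCCs (10 cells, 1.77 to 2.10) and 16.8 CPM in CBs (66 cells, 16.4 to 17.3). Hand1 had 0.304 CPM in CPCCs (5 cells, 0.243 to 0.377) and 6.38 CPM in CBs (19 cells, 6.11 to 6.66), and 1 CB cell carried 57.0% of the latter, without which the level was 2.76 CPM.

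Isl1, the progenitor factor, and Nkx2-5, the factor of committed cells, both had higher sums in CBs, which for Nkx2-5 rested on pool 2: the log2 ratio to CPCCs was -0.01 without it. Isl1 had 1.44 CPM in mESCs (11 cells, 1.32 to 1.57), 1.99 CPM in CPCCs (8 cells, 1.82 to 2.16) and 37.6 CPM in CBs (65 cells, 36.9 to 38.3), and the 65 CB cells had a median of 108 CPM with a highest value of 1058 CPM. Nkx2-5 had 0.359 CPM in CPCCs (9 cells, 0.292 to 0.437) and 5.80 CPM in CBs (22 cells, 5.54 to 6.06). In CPCCs the 9 cells with Nkx2-5 lay between 2.42 and 19.3 CPM, and in CBs the highest of the 22 cells reached 256 CPM.

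Mef2c was the most abundant of the factors by summed counts in both cultures that listed it, 57.2 CPM in CPCCs (56.3 to 58.1) and 51.3 CPM in CBs (50.5 to 52.1), in 41 and 86 cells. Mesp1 was at the other end, with 0.0541 CPM in 2 mESCs, 0.333 CPM in 3 CPCCs and 0.630 CPM in 3 CB cells. The 3 CB cells held Mesp1 at 26.9, 48.0 and 62.3 CPM.

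**Figure D1:**
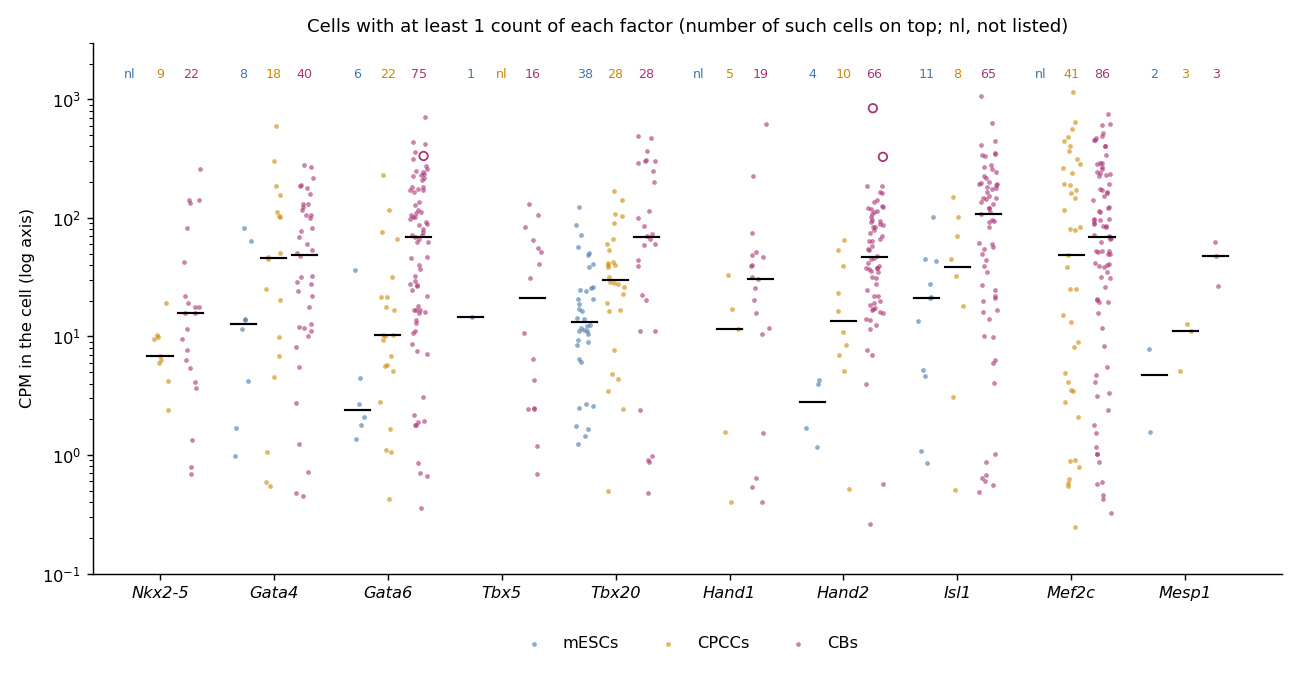
Level of each factor in every cell that held at least 1 count (vertical axis, CPM in the cell on a log axis) for mESCs, CPCCs and CBs, with black bars at the median, open circles for 3 values from cells under 10000 counts and the number of cells on top. Mef2c was held by 86 and Gata6 by 75 CB cells, Mesp1 by no more than 3 cells in any culture, and Tbx20 by 38 mESCs at a lower median than in the other cultures.

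Because the genes differ in length, levels were also set per kilobase of exon. The length was the union of all annotated exons of a gene, 15.7 kb for Mef2c and 12.0 kb for Tbx20. It can exceed the length of a transcript, which lowers the value of such a gene. In CBs the order was Isl1 (9.50 CPM per kb), Hand2 (7.16), Gata6 (4.88), Gata4 (3.49), Nkx2-5 (3.37), Mef2c (3.26), Hand1 (3.19), Tbx20 (1.43), Tbx5 (0.536) and Mesp1 (0.494). The Poisson intervals of neighbours overlapped from Gata4 to Nkx2-5, from Nkx2-5 to Mef2c, from Mef2c to Hand1 and from Tbx5 to Mesp1, so these neighbours were not told apart even by counting error. In CPCCs Gata4 came first (4.32 CPM per kb) and Mef2c second (3.64), and Gata6 (0.894), Hand2 (0.821) and Tbx20 (0.821) followed with overlapping intervals between neighbours. In mESCs Isl1 (0.363 CPM per kb) and Tbx20 (0.354) were first and did not differ beyond their intervals.

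Counting how widely each factor was held, 1 factor reached 10% of the cells or more in mESCs (Tbx20), 4 in CPCCs (Mef2c, Tbx20, Gata6, Gata4) and 6 in CBs (Mef2c, Gata6, Hand2, Isl1, Gata4, Tbx20). The same held for 66.1% of the genes listed in mESCs, 65.9% in CPCCs and 56.7% in CBs, so the factors' shares were below that in mESCs (1 of 7) and CPCCs (4 of 9) and near it in CBs (6 of 10). In CBs the shares were 37.1% for Mef2c (30.8 to 43.6%), 32.3% for Gata6 (26.4 to 38.8%), 28.4% for Hand2 (22.7 to 34.7%), 28.0% for Isl1 (22.3 to 34.3%) and 17.2% for Gata4 (12.6 to 22.7%). With each cell thinned to 430000 counts, which left out 22 mESCs, 18 CPCCs and 22 CB cells, these were 34.8, 31.4, 28.1, 26.2 and 17.6%, and Gata4 in CPCCs moved from 10.3 to 9.55%. The CPCC count of 4 was 2 when 5 counts were asked for in place of 1, and 2 without CPCC pool 2.

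Ratios between cultures were formed as the log2 ratio of (CPM + 1) on summed counts, which understates the change of low genes, for factors that both tables listed. From mESCs to CPCCs, 4 of 6 factors were past 2-fold higher and 0 lower, where 13.4% of all 20272 genes listed in both tables were past 2-fold higher and 6.38% lower. The log2 ratios were 3.26 for Gata4, 2.62 for Gata6, 1.47 for Hand2, 1.05 for Tbx20, 0.34 for Mesp1 and 0.29 for Isl1. The ratios of Tbx20 and Hand2 rested on CPCC pool 2: without it they were -1.02 and -0.07, Isl1 was at -1.29, and of the 6 factors 2 were past 2-fold higher and 2 lower. A larger added constant of 10 CPM left 1 of the 6 past 2-fold.

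From mESCs to CBs, 6 of 7 factors were past 2-fold higher and 0 lower, with 24.9% of 19855 genes past 2-fold higher and 11.3% lower. The log2 ratio was 4.88 for Gata6, 4.08 for Hand2, 3.98 for Isl1, 2.97 for Gata4, 1.79 for Tbx20, 1.67 for Tbx5 and 0.63 for Mesp1. Tbx20 had 0.70 without CB pool 2 and was then under 2-fold. This comparison and the preceding one share the mESC sample.

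From CPCCs to CBs, 5 of 9 factors were past 2-fold higher in CBs and 0 lower, with 17.0% of 20995 genes past 2-fold higher and 7.54% lower. The 5 were Isl1 (3.69), Hand2 (2.61), Hand1 (2.5), Nkx2-5 (2.32) and Gata6 (2.26). Tbx20 (0.74), Mesp1 (0.29), Mef2c (-0.15) and Gata4 (-0.29) stayed within 2-fold. For Nkx2-5 the ratio was -0.01 without CB pool 2, so it rested on CB pool 2. Without that pool 3 of the 9 factors were past 2-fold higher and 1 lower, with Hand1 at 0.99 and Gata4 at -1.5. The ratio of Mef2c was 5.03 without CPCC pool 2 and -1.09 without CPCC pool 1, and Tbx20 moved likewise between 2.80 and -0.03. With TMM or DESeq2 factors the median of all genes shifted by -0.15 to -0.21 in the CB comparisons on the log2 scale, and all counts of factors past 2-fold stayed as given.

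The other genes of the cardiac network, in lists that hold none of the 10 factors, were set beside them. Of the other cardiac regulators, 13 of 33 were past 2-fold higher in CPCCs than in mESCs (2 lower, median 0.47), 23 of 33 in CBs than in mESCs (2 lower, median 1.88) and 25 of 40 in CBs than in CPCCs (2 lower, median 1.35). The factors had medians of 1.26, 2.97 and 2.26 in the same order, and all genes had -0.02, 0.13 and 0.14. Cardiac target genes, which encode proteins of the sarcomere, ion handling and natriuretic peptides, had in the same 3 comparisons 10 of 23 higher and 4 lower, 19 of 24 higher and 1 lower, and 19 of 25 higher and 3 lower. Mesoderm regulators had 1 of 9 higher and 2 lower, 6 of 9 higher and 1 lower, and 9 of 12 higher and 0 lower. Progenitor signals and their receptors had 5 of 10 higher and 1 lower, 8 of 10 higher and 1 lower, and 9 of 12 higher and 1 lower.

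Over these 4 lists, the highest log2 ratios from mESCs to CPCCs were those of Ankrd1 (7.44), a muscle stress gene, Tnnt2 (4.74) and the sodium-calcium exchanger Slc8a1 (4.09), and the lowest were Kit (-3.06), Tbx3 (-2.72) and Gsc (-2.55). From mESCs to CBs the receptor Pdgfra (7.18) and the regulator Nr2f2 (6.85) were highest, and Tdgf1 (-6.05), a cofactor of Nodal signalling in pluripotent cells, Foxh1 (-2.13) and Actn2 (-1.93) were lowest. From CPCCs to CBs Tcf21 (5.31), a factor of epicardium and fibroblasts, Foxf1 (4.68) and Pdgfra (4.28) led, and Tdgf1 (-5.41), Foxh1 (-2.68) and Ankrd1 (-1.85) were lowest.

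Within a culture the factors differed widely between sequencing pools. In mESCs, Tbx20 had 4.65, 2.67 and 5.91 CPM in pools 1 to 3 and was in 19, 14 and 5 cells, whereas 7 of the 8 mESCs with Gata4 were in pool 1. In CPCCs, the Mef2c level was 0.599 CPM in pool 1 against 110 CPM in pool 2. Tbx20 had 1.60 and 17.6 CPM, Hand2 0.0075 and 3.73 CPM, and Isl1 0 counts in the 79 cells of pool 1, which allows up to 3.80% of cells, and 3.84 CPM in pool 2. Gata4 and Gata6 went the other way, with 20.8 and 13.2 CPM for Gata4 and 9.22 and 2.63 CPM for Gata6 in pools 1 and 2.

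In CBs pool 3 was the lowest for 9 of the 10 factors, the exception being Mesp1. Nkx2-5 was at 1.15 CPM in the first pool, 14.3 CPM in the second and 0 counts in the 85 cells of pool 3, which allows up to 3.53% of cells. Gata4 had 17.2, 26.5 and 0.202 CPM in the 3 pools, Gata6 68.9, 42.3 and 5.94 CPM, and Tbx20 18.1, 32.2 and 2.91 CPM. Pool 3 thus lay far below the other pools for the GATA factors, Tbx20 and Nkx2-5. Hand2 was more even, with 24.9, 16.0 and 14.1 CPM, as was Mef2c with 54.7, 65.7 and 36.6 CPM. Isl1 had 20.9, 65.5 and 19.2 CPM, so its pool 2 stood alone. Of the cells with 100 CPM or more of Tnnt2, 5 were in pool 1, 9 in pool 2 and 2 in pool 3, and for Kdr, which encodes a VEGF receptor of endothelium and its progenitors, the numbers were 4, 25 and 2, whose part in the pool values was not tested.

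**Figure D2:**
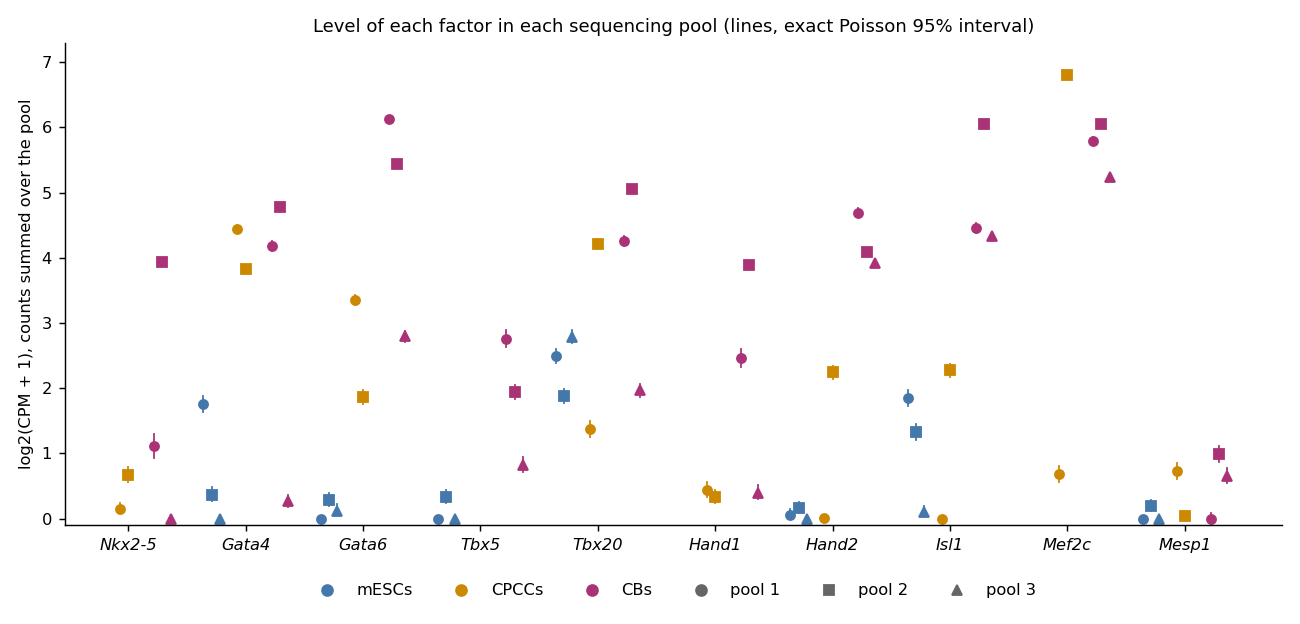
Level of each factor in each sequencing pool as log2(CPM + 1) of the summed counts (vertical axis), coloured by culture and shaped by pool, with lines for the exact Poisson 95% interval. Mef2c is far apart in the 2 CPCC pools, at 0.599 and 110 CPM, and in CBs the triangle of pool 3 lies below the other pools for most factors.

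To see which cells held each factor, cells were grouped at 100 CPM or more of C1qa, C1qb and C1qc together (complement genes of macrophages), Col1a2 (a collagen of fibroblasts and other mesenchyme), Kdr or Tnnt2. These classes overlap, and cells under 100 CPM for all 4 form a class without markers. All 215 mESCs were in the last class. CPCCs had 21 C1q-high, 32 Col1a2-high, 2 Kdr-high and 10 Tnnt2-high cells and 116 without markers. CBs had 7, 117, 31 and 16 such cells and 80 without markers, and 4 of the Col1a2-high and 1 of the C1q-high CB cells had under 10000 counts.

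In CPCCs, Mef2c was held mainly by the C1q-high cells. The 21 C1q-high cells held 88.2% of all Mef2c counts but 14.4% of all counts, at 349 CPM (344 to 355) against 7.90 CPM in the other 154 cells, and 18 of 21 detected it (85.7%) against 23 of 154 (14.9%). All 21 cells were in pool 2, and within pool 2 the other cells had 17.4 CPM. Mef2c was the 1 factor of 9 with over 50% of its counts in C1q-high cells, where 5.6% of all listed genes had that. Of the 8 macrophage markers all were listed in CPCCs, between 50.1 and 621.5 CPM.

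In the Tnnt2-high cells of CPCCs, Hand2, Gata4 and Tbx20 were prominent. The 10 cells held 95.1% of the Hand2 counts at 21.1 CPM (19.3 to 23.1) against 0.103 CPM elsewhere, with 7 of 10 cells against 3 of 165. They held 56.2% of the Tbx20 counts at 63.6 CPM against 4.73 CPM (8 of 10 cells against 20 of 165) and 38.4% of the Gata4 counts at 74.5 CPM against 11.4 CPM (7 of 10 against 11 of 165). Without the top cell of each gene, the class had 13.8 CPM of Hand2 (91.6% of its counts) and 39.6 CPM of Tbx20 (37.8%), and the other cells had 6.23 CPM of Gata4, so that Gata4 (53.5%) and not Tbx20 was then over 50%. Isl1 was in 0 of these 10 cells, which allows a share of up to 30.0%, and Nkx2-5 in 2. Over 50% of counts was reached by 2 of 9 factors here, against 2.22% of all listed genes. All 10 cells were in pool 2, 5 of them were Col1a2-high as well, and each had no more than 2 of the 10 cardiomyocyte markers at 10 counts or more, so they did not carry the cardiomyocyte list as a whole. The smooth muscle genes Acta2, Tagln, Cnn1, Myh11 and Actg2 together had a median of 7758 CPM in the 10 cells and 101 CPM in the other 165, whose part in the values was not tested. The cell with the highest Tnnt2, 2151 CPM, held none of the factors.

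The Col1a2-high cells of CPCCs held over 50% of the counts of 4 of 9 factors (6.84% of all listed genes): Nkx2-5 (73.7%), Isl1 (69.2%), Hand2 (61.9%) and Tbx20 (55.5%). Isl1 was in 6 of the 32 cells at 7.52 CPM summed, against 0.749 CPM elsewhere, and 1 further cell, which was Kdr-high, had the highest Isl1 of the culture at 150.5 CPM. For Hand2, 97.6% of the counts of these cells lay in the cells that were Tnnt2-high as well. The 27 cells with Col1a2 as their only marker had Hand2 in 1 cell at 0.185 CPM summed, against 12.9 CPM in the 4 Tnnt2-only cells. Genes of smooth muscle contraction went with the same cells: the summed level of the 5 smooth muscle genes had a median of 20578 CPM in the 32 Col1a2-high cells and 45.9 CPM in the other 143. In the cells with at least 10 counts of a factor, the median of this sum was 25623 CPM for Nkx2-5 (6 cells), 15106 CPM for Isl1 (6 cells), 12829 CPM for Tbx20 (24 cells), 10486 CPM for Hand2 (7 cells) and 10420 CPM for Gata6 (15 cells), against 80.8 to 104.2 CPM in the other cells. It was 227 CPM for Gata4, 118 CPM for Mef2c and 12.1 CPM for Hand1, against 101, 105 and 109 CPM. Tagln and Cnn1 were in 103 and 73 of the 169 cells with fewer counts of Nkx2-5 as well, and Myh11, the myosin that defines mature smooth muscle, had 10 counts in 2 cells of the culture, so the list was not carried as a whole, and its part in the values of the factors was not tested. Without the top cell of each gene, Hand2 fell to 34.5% in the class and Isl1 to 4.41 CPM (56.0%), while Nkx2-5 had 66.7% and Tbx20 78.8%. At the stricter limit of 1000 CPM of Col1a2 none of these 4 stayed over 50%. The 2 Kdr-high cells held over 50% of the counts of 0 factors (0.484% of all listed genes).

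The cells without markers in CPCCs held over 50% of the counts of Gata4 (61.6%), Gata6 (77.8%), Hand1 (85.7%) and Mesp1 (100%), 4 of 9 factors against 73.2% of all listed genes, which is below the background. For the GATA factors these counts came from few cells, and without its top cell Gata4 had 46.5% there and Gata6 65.8%. Gata4 reached at least 10 counts in 6 of the 116 cells, and 4 of these 6 had at least 10 counts of Sox17, a factor of endoderm, against 1 of the other 110. Gata6 also had 6 such cells, with Sox17 in 4 against 1 of 110. Most of these cells held both factors, and those that did were all in pool 1, so the values of the 2 factors are not independent. Of the fibroblast list, Pdgfra was in 4 of the 6 against 0 of 110 for either factor, Dcn and Lum were in 0, and Col1a1, Col1a2 and Col3a1 were in 0 to 2. Krt8 and Krt18 were in 6 and 6 of the 6 Gata4 cells, against 38 and 57 of 110, and in 4 and 5 of the 6 Gata6 cells, against 40 and 58. Of the rest of the epithelial list, Wfdc2 went the other way, in 2 against 82 for either factor. Epcam was in 6 and 5 against 96 and 97, Krt19 in 2 and 3 against 23 and 22, and Upk1b in 1 against 3 for either factor. Of the pluripotency genes, Nanog, Pou5f1, Sox2 and Esrrb were in smaller shares of the Gata4 cells, with Nanog in 2 against 81 and Pou5f1 in 2 against 88. This was likewise so in the Gata6 cells, with 1 against 82 and 1 against 89. Zfp42 was in 4 of the Gata4 cells against 72 and in 3 of the Gata6 cells against 73. Dppa5a was in 5 against 91 and 4 against 92. Of the other endoderm markers Apoe was in all 6 but also in 103 of the 110, while Afp was in 1, Apoa1 in 0 and Ttr had no row in the CPCC table. The highest Gata4 cell of the culture, at 594 CPM, was among the cells without markers, as was the highest Gata6 cell at 228 CPM, and both were in pool 1.

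**Figure D3:**
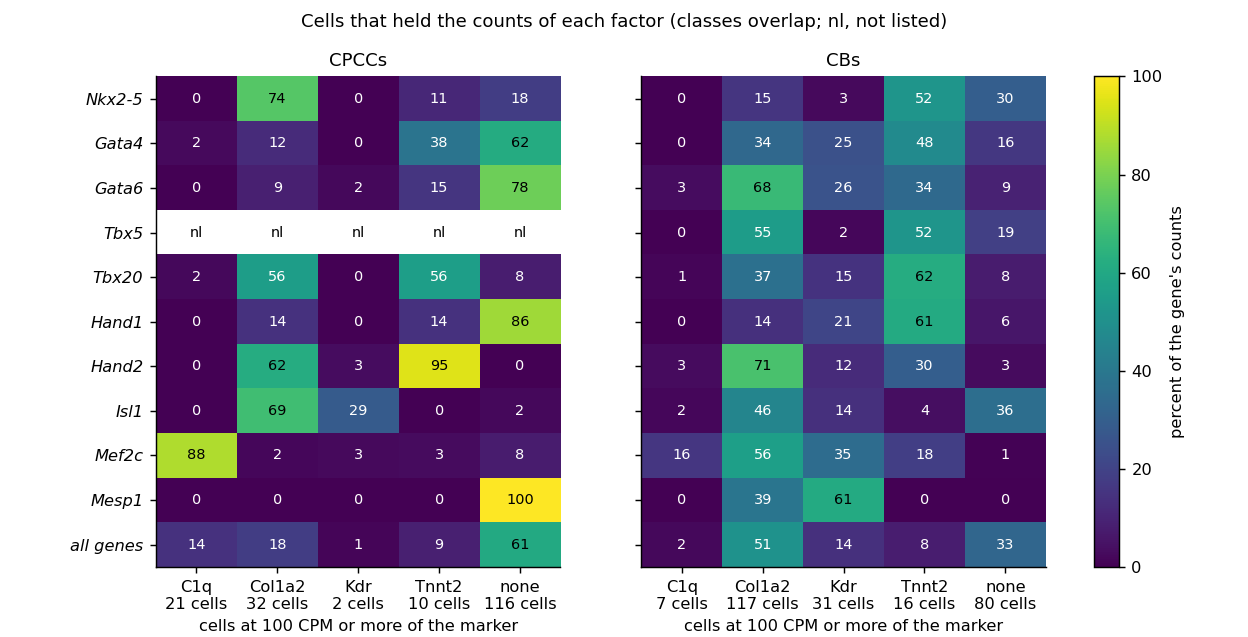
Percent of the summed counts of each factor (rows) that came from cells of each marker class (columns) in CPCCs and CBs, with the share of all counts in the lowest row and nl where the table did not list the gene. Mef2c has 88.2% in the C1q-high CPCCs, and in CBs the Tnnt2-high class, with 8.18% of all counts, holds over 50% for Nkx2-5, Tbx5, Tbx20 and Hand1.

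In CBs most of the factors were higher in the Tnnt2-high cells than in the other cells. Tbx20 had 130 CPM (125.4 to 134) in the 16 cells and 7.11 CPM in the other 216, with 9 of 16 cells against 19 of 216. Gata4 had 79.6 and 7.72 CPM, with 13 of 16 cells (81.3%) against 27 of 216 (12.5%), and Gata6 133 and 22.8 CPM, with 12 of 16 against 63 of 216. Without its top cell the class had 101 CPM of Gata6, and the 9 cells with Tnnt2 as their only marker had 59.5 CPM. Nkx2-5 had 36.9 CPM in the class and 3.02 CPM outside, in 5 and 17 cells, and 15.9 CPM in the class without 1 cell that held 620 of its 1021 counts. Hand1 had 47.7 against 2.695 CPM (3 and 16 cells), but 1 cell at the limit of the class, with 100.8 CPM of Tnnt2, held 57.0% of all Hand1 counts of the culture, and without it the class had 3.54 CPM. Tbx5 had 16.0 against 1.31 CPM (5 and 11 cells), or 9.47 CPM without its top cell, Hand2 61.8 against 12.8 CPM (10 and 56 cells) and Mef2c 116 against 45.6 CPM (9 and 77 cells). Within pool 1, with 5 Tnnt2-high cells, Mef2c was lower in the class, at 33.4 against 57.2 CPM. Tbx20 (23.1 against 17.5 CPM) and Hand1 (5.89 against 4.36 CPM) were close there, and the other 5 of these factors were higher. Within pool 2, with 9 such cells, all of these factors were higher, with Tbx20 at 195 against 7.09 CPM and Mef2c at 166 against 50.2 CPM.

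Isl1 stood apart from these. It had 17.6 CPM in the Tnnt2-high cells and 39.4 CPM in the others, and was in 4 of 16 (25%) against 61 of 216 (28.2%). Mesp1 was in 0 of the 16, which allows a share of up to 18.8%. Over 50% of the counts lay in Tnnt2-high cells for 4 of 10 factors, Tbx20 (61.9%), Hand1 (61.2%), Tbx5 (52.1%) and Nkx2-5 (52.1%), where 2.32% of all listed genes had that. Of the 4, 1 remained over 50% when the top cell of each gene was left out, Tbx20 (52.6%), with Tbx5 then at 37.1%, Nkx2-5 at 29.9% and Hand1 at 9.81%. The number over 50% was 2 when each cell had the same weight, and 0 at a limit of 1000 CPM of Tnnt2, which fewer cells pass.

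The Tnnt2-high class itself was mixed. The 5 smooth muscle genes had a median sum of 513 CPM in it and 3.09 CPM in the other 216 cells, and their part in the values of the factors was not tested. Of the 16 cells, 5 had at least 5 of the 10 cardiomyocyte markers at 10 counts or more. The cell with the highest Tnnt2 (2372 CPM, pool 2) had all 10 and held Tbx20 at 472 CPM, Nkx2-5 at 256 CPM, Gata4 at 187 CPM, Mef2c at 115 CPM, Hand2 at 112 CPM and Tbx5 at 84.0 CPM, with no Gata6, Hand1 or Isl1 count. The next cell had 7 of 10 markers and held Mef2c at 492 CPM, Tbx20 at 288 CPM, Hand2 at 186 CPM, Nkx2-5 at 140 CPM, Gata6 at 71.0 CPM and Gata4 at 11.7 CPM. The third, also with 7 markers, was the one of these 3 with Isl1, at 179 CPM. The highest Nkx2-5 level of the culture was in the cell with all 10 markers, yet 2 marker-free cells of pool 2 with no Tnnt2 count held 141.6 and 133.5 CPM, and marker-free cells held 29.8% of the Nkx2-5 counts. Of 6 marker-free cells with at least 10 counts of Nkx2-5, 2 had Ttn and 2 Actc1 (1 and 5 of the other 74), Myh6, Myh7, Myl7 and Nppa were each in 1 (0, 5, 1 and 0), and Tnnt2, Tnni3, Actn2 and Ryr2 in 0 (4, 2, 1 and 2). Of the smooth muscle genes Acta2 was in 3, Tagln in 3 and Cnn1 in 2, against 10, 12 and 0, and Myh11 and Actg2 in 0 of all 80, while Epcam, Krt8, Krt18 and Wfdc2, genes of epithelia, were each in 5, against 52, 55, 53 and 50 of the other 74. The other 2 genes of that list went the other way, with Krt19 in 3 of 6 against 46 of 74 and Upk1b in 1 against 32. The cell with the highest Gata6 of the class (711 CPM) had 1 of the 10 markers, and that with the highest Hand1 (617 CPM) had 2.

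**Figure D4:**
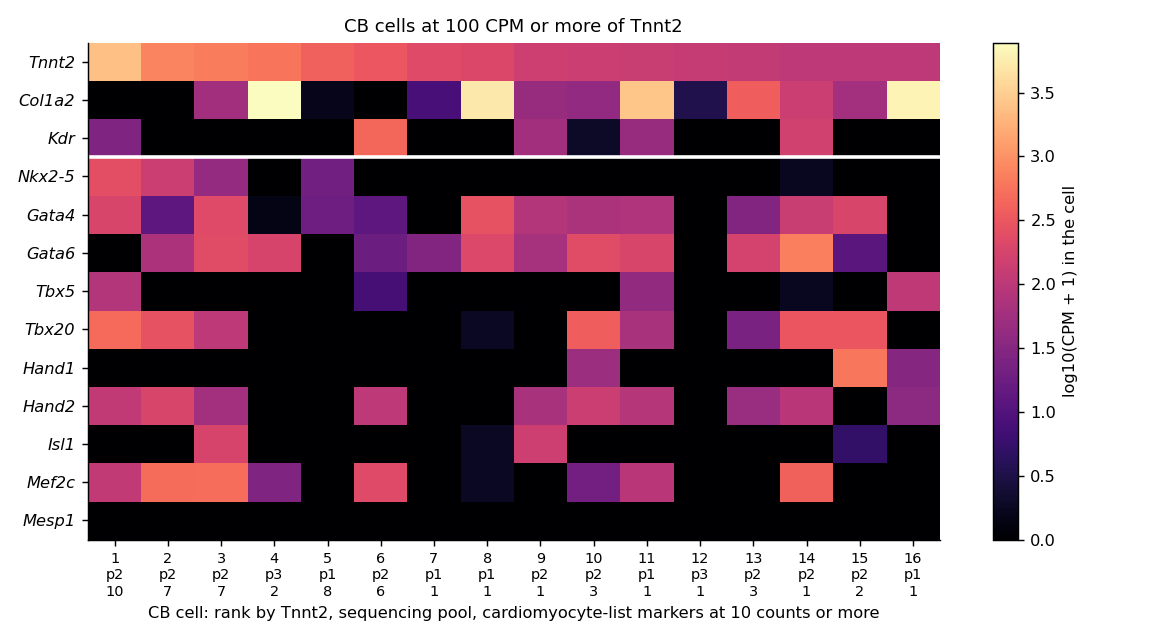
The 16 CB cells at 100 CPM or more of Tnnt2, in columns by falling Tnnt2, with colour for log10(CPM + 1) of 3 marker genes above the white line and the factors below it. Nkx2-5 is seen in 5 cells, at 256, 140 and 42.2 CPM in the 3 with the highest Tnnt2 (10, 7 and 7 of the 10 cardiomyocyte markers), at 19.0 CPM in the fifth (8 markers) and at 0.696 CPM in 1 with 1 marker, and Gata4 and Gata6 are also seen in cells with 1 to 3 markers.

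The Col1a2-high cells, which held 51.1% of all CB counts, had over 50% of the counts of Hand2 (71.4%), Gata6 (67.8%), Mef2c (56.3%) and Tbx5 (55.4%), 4 of 10 factors against 45.1% of all listed genes, a share near the background. Hand2 had 23.5 CPM (22.8 to 24.3) in them and 9.84 CPM elsewhere, with 49 of 117 cells (41.9%) against 17 of 115 (14.8%). Gata6 had 42.1 against 20.9 CPM but was in like shares of cells, 37 of 117 and 38 of 115. Of the Gata6 counts of the class, 38.9% lay in cells that were Tnnt2-high as well. The 100 cells with Col1a2 as their only marker had 27.1 CPM of Gata6. Nkx2-5 was lower in them, at 1.75 against 10.03 CPM, or 6.37 CPM without its top cell. For Hand2, the Col1a2-high cells were above the rest in each pool, at 33.3 CPM against no count in pool 1, 19.3 against 15.1 CPM in pool 2 and 20.1 against 1.29 CPM in pool 3. The 5 smooth muscle genes moved with the class here too, with a median sum of 187 CPM in Col1a2-high and 0.724 CPM in other CB cells, and 480 against 1.31 CPM between cells with and without 10 counts of Hand2, whose part was not tested.

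By these overlapping classes, Mef2c in CBs was highest in the C1q-high and the Kdr-high cells. Among cells with 1 marker only, the 9 with Tnnt2 had 150 CPM of Mef2c and the 23 with Kdr had 139 CPM. The 31 Kdr-high cells had 131 CPM of Mef2c (128 to 135) against 38.5 CPM elsewhere, in 23 of 31 cells (74.2%) against 63 of 201 (31.3%). The 7 C1q-high cells had 379 against 44.1 CPM, in 3 of 7 cells. The 3 were Col1a2-high as well, the 2 cells with C1q as their only marker had no Mef2c count, and 1 cell held 1651 of the 2756 Mef2c counts of the class, which had 241 CPM without it. The 80 cells without markers had 0.870 CPM of Mef2c, and those of CPCCs had 7.12 CPM. Kdr-high cells also held both of the Mesp1 cells of pool 2, at 26.9 and 48.0 CPM, and thereby 61.0% of the Mesp1 counts, the 1 factor with over 50% in that class (4.65% of all listed genes), and the third Mesp1 cell was Col1a2-high.

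The CB cells without markers held 36.0% of the Isl1 counts with 33.0% of all counts, at 41.0 CPM in 24 of 80 cells (30.0%) against 35.9 CPM and 41 of 152 (26.97%) elsewhere. The Col1a2-high cells held 45.6% of the Isl1 counts and the Kdr-high cells 13.7%, with 51.1 and 13.8% of all counts. Over the whole culture Isl1 thus followed the counts of these 3 classes, while the Tnnt2-high cells held 3.84% of it with 8.18% of all counts. Its pools differed, however. Marker-free cells had 0 against 26.4 CPM of Isl1 in pool 1, 78.6 against 56.1 CPM in pool 2 and 5.59 against 25.1 CPM in pool 3. Col1a2-high cells had 25.4 against 7.59, 73.7 against 63.2 and 25.7 against 5.32 CPM in the same order. In the marker-free cells no factor had over 50% of its counts (18.5% of all listed genes did), and the C1q-high cells had 0 as well (1.74%). Of the 22 marker-free cells with at least 10 counts of Isl1, 19 had Krt18, 18 Krt8, 17 Epcam and 17 Wfdc2, against 39, 42, 40 and 38 of the other 58. The other genes of the epithelial list differed less or went the other way, with Krt19 in 13 against 36 and Upk1b in 4 against 29.

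Gata4 and Gata6 in the marker-free CB cells coincided with several genes of the endoderm list. Gata4 had at least 10 counts in 5 of the 80 cells, and 4 of these 5 had the transthyretin gene Ttr, Afp and Apoa1 at 10 counts or more, against 3, 4 and 4 of the other 75. Of the rest of the list, Apoe was in 5 against 26, Amn in 3 against 3, Sox17 in 1 against 1 and Foxa1 in 1 against 32. The median of the 5 cells was 1864 CPM for Ttr, 1465 CPM for Afp and 3447 CPM for Apoa1. Gata6 had 10 such cells, of which 5 had Ttr, 5 Afp and 5 Apoa1, against 2, 3 and 3 of the other 70. Apoe was in 6 against 25, Amn in 5 against 1, Sox17 in 1 against 1 and Foxa1 in 2 against 31. Foxa1 thus did not go with Ttr, Afp, Apoa1 and Amn in these cells. Some of the cells held both factors. Genes of other lists went with them too, with Zfp42 in 3 of the 5 Gata4 cells against 3 and in 5 of the 10 Gata6 cells against 1. Csf1r was in 3 against 3 for either factor, though the other macrophage genes were in none of these cells. Krt8 was in all 5 and all 10, against 55 and 50, while Wfdc2, Upk1b and Sox2 went the other way.

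Factors were held together most often in the Tnnt2-high cells. Counting factors with at least 10 counts, no mESC held more than 2, CPCCs reached 5 and CBs reached 8. At least 2 were held by 3 mESCs, 23 CPCCs and 90 CB cells, and at least 4 by 0, 5 and 27 cells. Of the 16 Tnnt2-high CB cells, 10 held at least 4 (62.5%), against 9 of 31 Kdr-high (29.0%), 12 of 117 Col1a2-high (10.3%), 0 of 7 C1q-high and 2 of 80 marker-free cells (2.5%). All 9 Tnnt2-high cells of pool 2 were among these 10, and neither of the 2 in pool 3 was, so the share rested mainly on pool 2. In pool 1 every cell with at least 4 factors was Col1a2-high. In CPCCs 3 of the 10 Tnnt2-high and 3 of the 32 Col1a2-high cells held at least 4, and all 5 such cells were in pool 2.

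The CB cell with 8 factors held Nkx2-5, Gata4, Gata6, Tbx20, Hand1, Hand2, Isl1 and Mef2c. It was in pool 2 and had 229 CPM of Kdr and 53.0 CPM of Tnnt2, below the limit for the Tnnt2-high class. Over pairs in CBs, Gata4 and Gata6 were together in 21 cells, which are 63.6% of the 33 Gata4 cells and 35.0% of the 60 Gata6 cells. Gata6 and Hand2 shared 31 cells, 51.7% of 60 and 52.5% of 59, and Nkx2-5 and Isl1 shared 10, 62.5% of the 16 Nkx2-5 cells and 17.9% of the 56 Isl1 cells. Gata4 and Isl1 shared 6 cells, 18.2% of the Gata4 cells and 10.7% of the Isl1 cells.

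**Figure D5:**
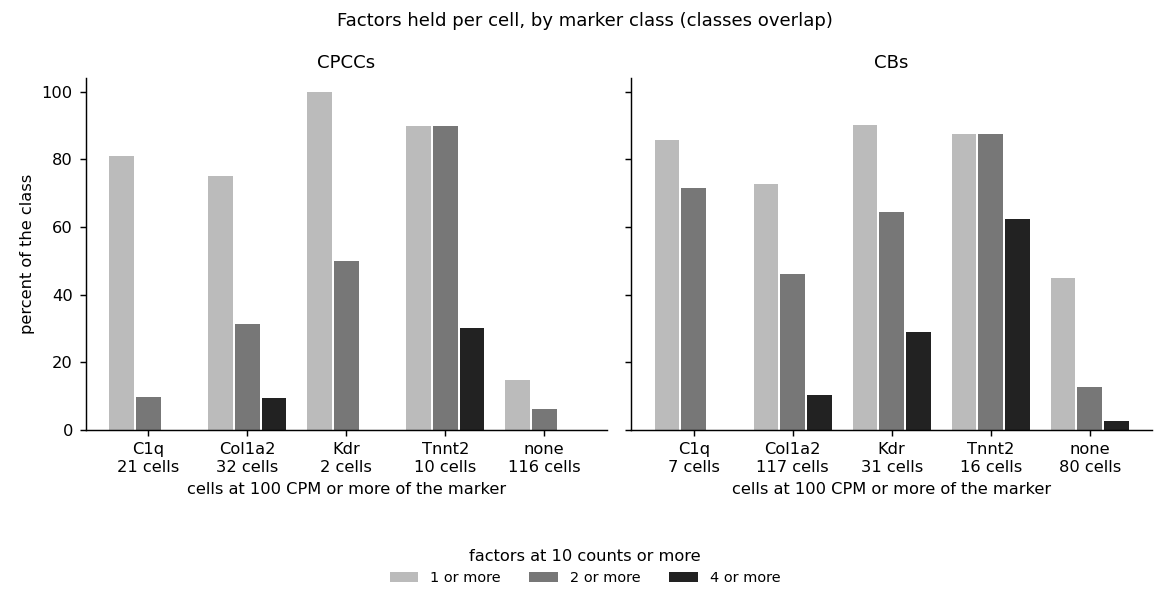
Percent of the cells of each marker class (vertical axis) that held at least 1, 2 or 4 of the factors at 10 counts or more, in CPCCs and CBs. In CBs the dark bar for 4 or more reaches 62.5% in the 16 Tnnt2-high cells and 29.0% in the 31 Kdr-high cells, and 2.5% in the 80 cells without markers.

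The genes whose pattern over cells was most like that of each factor were ranked by Pearson correlation of log2(CPM + 1) over cells with 100000 or more counts that share pools and depth, as a description. In the 169 CPCCs, Mef2c was most like Aif1, C1qa and Cd300c2 (r = 0.85 each), of which C1qa belongs to the class definition. Gata4 was most like Hs3st1 (0.72), Gata6 (0.66) and Sox17 (0.65), and Gata6 like 1010001N08Rik (0.67), Sox17 (0.67) and Gata4 (0.66). Tbx20 was most like Col5a2 (0.63), Inhba (0.62) and Col8a1 (0.61). In the 219 CB cells, Nkx2-5 was most like Mylk3 (0.70), Myl7 (0.55) and Ttn (0.51), genes of the cardiac contractile apparatus, and Tbx20 like Tnnt2 (0.53), Tnni1 (0.49) and Mylk3 (0.46). Gata4 was most like Tnni1 (0.54), Gata5 (0.46) and Asb4 (0.43). Mef2c was there most like Esam (0.47), Cd93 (0.46) and Ecscr (0.46), which are known from endothelium. The highest values for Isl1 (0.40), Tbx5 (0.38) and Hand1 (0.44) were weak in such sparse counts and are not read further.

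Hand2 was most like 2 noncoding neighbours in both cultures, which in CBs were also 2 of the 3 genes most like Gata6 (5033428I22Rik 0.52, Hand2os1 0.45 and Plxna4 0.41). In CPCCs r was 0.77 for Hand2os1 and 0.72 for 5033428I22Rik, and in CBs 0.68 and 0.71 in the same order. Hand2os1 (chr8:57281117-57324233) runs on the opposite strand and overlaps Hand2, while 5033428I22Rik (chr8:57332118-57354580) lies on the same strand, 7485 bases beyond the end of Hand2, with no overlap. Hand2os1 had 0.0725 CPM in mESCs, 8.78 CPM in CPCCs and 88.2 CPM in CBs, each above Hand2 itself in summed counts. In CBs 49 of the 59 cells with at least 10 counts of Hand2 also had 10 of Hand2os1, and 70 cells had Hand2os1. In CPCCs it was 6 of 7 cells. The antisense neighbour of Gata6, 1010001N08Rik, was low by comparison, with 0.696 CPM in CPCCs and 0.721 CPM in CBs, and was present in 4 of 15 and 5 of 60 Gata6 cells.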

How the data were processed

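The members and the gene lists were chosen with earlier results of these data known. Per the sources used here, reads of C1 libraries were aligned to GRCm38 (mm10) with STAR 2.7 in Partek Flow, and the authors deposited a gene count table for each culture, whose columns are cells. The deposited CPCC values were whole counts. The deposited mESC and CB values were estimated counts: 24.3% and 24.6% of values above 0 were over 0.01 from a whole number. The counter was not given in the sources used here. In that of the CPCCs, 208 rows without a gene and 23 with a symbol turned into a date (0.139% of counts) were left out, and 2 columns without a sample were not used.

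The culture in a table's name linked it to its sample. CPM used summed gene counts, over the sample for levels or over the cell for cells. Detection meant at least 1 estimated count, and a highest or lowest value was taken over cells of at least 10000 counts. Values were rounded for thinning, intervals and scaling factors. Chip chambers had been inspected for several cells in the study, the tables do not mark these, and no doublet caller was run. No cell was removed in the main analysis. Named genes were all members, the 3 highest and 3 lowest log2 ratios over the other 4 lists pooled (at 1 CPM or more in either sample; 1 of these is not reported here), and the 3 genes most like each member held by at least 10 cells. Splits of the marker-free cells by other markers, and of pairs with neighbours, were chosen after the data were seen. Python 3.11.15 with pandas 2.3.3 and scipy 1.17.1 was used, and edgeR 4.0.16 and DESeq2 1.42.0 gave scaling factors only, with no test. Each table gives 1 sample, so no p-value was computed. The scripts were tested on simulated data.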

Additional observations from a re-analysis of the deposited data

How the results depend on the processing

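The counts of factors past 2-fold, of factors in at least 10% of cells and of factors with over 50% of their counts in 1 marker class were recomputed under other scaling, added constants, detection limits, marker limits, cell filters, equal cell weights and without each pool or top cell. Of 110 such values, 94 stayed within 1.5 times. With 10 CPM added, factors past 2-fold were 1 from mESCs to CPCCs (4 in the report) and 3 from CPCCs to CBs (5). In CPCCs, factors in at least 10% of cells were 2 (in place of 4) at 5 counts, at 10 counts and without pool 2. For the marker classes of CPCCs, the count was 0 for Col1a2 (in place of 4) at 1000 CPM, 1 for Tnnt2 (in place of 2) at 1000 CPM and with equal weights, and 2 for the marker-free cells (in place of 4) at 10 CPM. For those of CBs it was 8 at 10 CPM and 2 at 1000 CPM for Col1a2 (4), 0 at 1000 CPM for Kdr (1), 0 at 1000 CPM, 2 with equal weights and 1 without the top cell of each gene for Tnnt2 (4), and 5 at 1000 CPM for the marker-free cells (0). Changing a limit changes the cells of a class by construction, and for the others the cause was not tested. Of 290 log2 ratios of single factors, 254 stayed, 33 moved and 3 that were past 2-fold reversed. The sign also turned in 14 of those that moved, which were within 2-fold in the report. The 3 were, from mESCs to CPCCs, Tbx20 to -1.02 and Hand2 to -0.07 without CPCC pool 2, and from CPCCs to CBs, Nkx2-5 to -0.01 without CB pool 2. The split of factors past 2-fold became 2 higher and 2 lower in the first case, and 3 higher and 1 lower in the second. Among the 14, Isl1 from mESCs to CPCCs was at -1.29 without CPCC pool 2, and from CPCCs to CBs Tbx20 was at -0.35 without CB pool 2 and Mef2c at 5.03 without CPCC pool 2. Factors held by under 5 cells, such as Mesp1, are limited by the number of cells. No paired analysis was possible because each group is 1 sample and the pools carry no number that pairs them across cultures.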

Other observations

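Relatives of the factors were measured in the same cells. Mef2a, which is expressed in many tissues, was wider than Mef2c, with 12.1 CPM in mESCs, 68.8 CPM in CPCCs and 122 CPM in CBs, and was in 74 of 215, 105 of 175 and 165 of 232 cells. Mef2d had 18.2, 12.6 and 26.7 CPM in the same order. Mef2b was in 49 mESCs, 59 CPCCs and 9 CB cells, at 4.52, 5.79 and 2.37 CPM. Gata5, the third cardiac GATA factor, was listed in CBs alone, with 4.64 CPM in 16 cells. Gata2, a factor of blood and endothelium, had 10.03, 2.68 and 8.45 CPM in 86, 27 and 35 cells, and in CBs 76.1% of its counts were in Kdr-high cells. Mesp2, the neighbour and close relative of Mesp1, was found in more cells than Mesp1 in each culture: 18 mESCs, 13 CPCCs and 14 CB cells, at 1.65, 1.60 and 6.22 CPM.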
